A study of Mus musculus with 12 samples.

Results

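The 10 genes described here encode 2 inflammasome sensors (Nlrp3 and Aim2), their adaptor (Pycard), 2 inflammatory caspases (Casp1 and Casp4), the pore protein cleaved by those caspases (Gsdmd), 3 cytokines (Il1a, Il1b and Il18) and the antagonist of the IL-1 receptor (Il1rn). They were taken by gene name from a deposited table of 56748 genes, and all 10 were found there. The RNA came from whole lung of mice with MMTV-PyMT, in which the promoter of mouse mammary tumour virus drives the middle T oncogene of polyoma virus, and with MMTV-Cre. The C3 KO group carried MMTV-Cre, C3Tdt and MMTV-PyMT, the S1pr1 KO group MMTV-Cre, S1pr1fl/fl and MMTV-PyMT, and the wild-type group (WT) MMTV-Cre and MMTV-PyMT only. Each group had 4 libraries, lungs were taken at 4.5 months, and every sample is labelled as lung metastasis. The MMTV promoter, which drives Cre in all 3 groups, is active mainly in mammary epithelium, whereas whole lung holds many other cell types. Separate animals per sample are not stated in the labels, and a p-value here measures the spread between these samples, which may be technical.

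Inflammasomes are protein assemblies in which a sensor of infection or cell damage recruits the adaptor ASC, the product of Pycard, and through it caspase-1. Active caspase-1 cleaves the precursors of IL-1β and IL-18 into the secreted cytokines and cleaves gasdermin D, whose fragment forms pores in the plasma membrane. Some of these genes, such as Il1b and Nlrp3, are induced by a priming signal through NF-κB. In lung these genes are known mainly from myeloid cells, while epithelial cells are a known source of IL-18. RNA levels do not show whether an inflammasome was active, since cleavage takes place at the protein level.

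Total counts per library ranged from 32274797 to 53063470, and all 10 genes were among the 20229 that passed the filter on low counts. Between 96 reads (Il1a) and 6621 reads (Il1b) of a library fell on any of the 10. Libraries are numbered within a group by order of deposition. The targeted genes did not follow the labels in every library. C3 had 475, 465, 601 and 1416 CPM (read counts relative to the library total, scaled by the trimmed mean of M values) in C3 KO lungs, against 1025, 787, 903 and 799 CPM in WT lungs. S1pr1 had 132, 366, 142 and 154 CPM in S1pr1 KO lungs, against 295, 491, 319 and 330 CPM in WT lungs. The library labelled C3 KO 4 was therefore above every WT library for C3, and the library labelled S1pr1 KO 2 lay within the WT range for S1pr1. Neither gene passed the test (edgeR adjusted p = 0.813 for C3 in C3 KO against WT and 0.153 for S1pr1 in S1pr1 KO against WT). Lung markers were present throughout, with a summed level of 6 alveolar type 2 genes between 17600 and 25750 CPM.

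Per kilobase of the listed gene length, Gsdmd, Il1b and Il18 had the most RNA of the 10. The median over the 12 libraries was 27.5 FPKM (fragments per kilobase, scaled to depth) for Gsdmd, 22.7 FPKM for Il1b and 10.3 FPKM for Il18. The other 7 genes followed at 3.45 FPKM (Casp4), 3.04 FPKM (Casp1), 2.76 FPKM (Aim2), 2.41 FPKM (Il1a), 2.08 FPKM (Nlrp3), 1.82 FPKM (Pycard) and 1.498 FPKM (Il1rn). Il18 in its lowest library (7.23 FPKM) was above Casp4 in its highest (4.54 FPKM), and this was the only pair of neighbours in the order whose libraries did not overlap. The length listed for Il1rn was 5535 bases and that for Il18 1031 bases, and the order depends on these lengths.

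**Figure D1:**
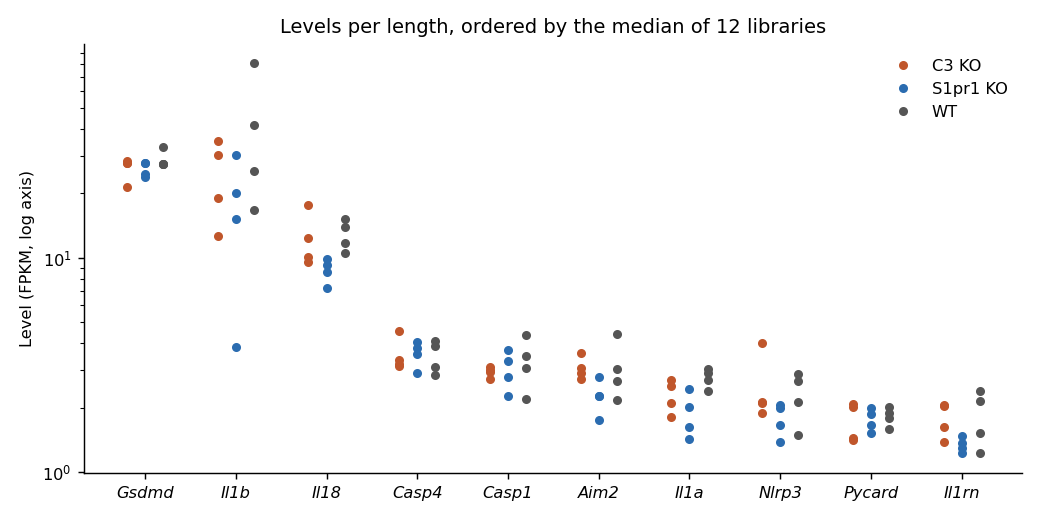
Level per listed gene length (FPKM, log axis) of the 10 genes in each library, ordered by the median over 12 libraries, with C3 KO, S1pr1 KO and WT libraries as separate columns of points. Gsdmd, Il1b and Il18 stand above the other 7 genes by their medians. Il1b spreads over the widest range, and its lowest library (S1pr1 KO 2, 3.82 FPKM) lies below the highest of Casp4 (4.54 FPKM).

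The genes also differed in how much they varied between libraries. Il1b ran from 7.28 CPM in the library labelled S1pr1 KO 2 to 155 CPM in WT 1, a 21.3-fold range. Its biological coefficient of variation within groups was 0.546, higher than that of 96.5% of the genes tested. Gsdmd had the lowest coefficient of the 10, 0.110, with a 1.54-fold range over all 12 libraries, and the other 8 genes had coefficients between 0.168 (Pycard) and 0.263 (Nlrp3).

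Of the 10 genes, 9 had a lower mean in S1pr1 KO against WT and none passed the test. The 4 lowest fold changes were those of the cytokines and the antagonist, Il1b, Il18, Il1a and Il1rn, followed by the sensors Aim2 and Nlrp3. The caspases, the adaptor and Gsdmd lay close to no change. By edgeR's quasi-likelihood test with Benjamini-Hochberg adjustment, 0 of 10 had an adjusted p under 0.05, against 1.35% of all genes tested. With DESeq2 the number was also 0, against 6.32% of all genes. With limma voom and quality weights, which called 4.59% of all genes, it was 1 (Il1a, log2 fold change -0.68, adjusted p = 0.0458). At an unadjusted p under 0.05, 3 of 10 were lower (Il18, Il1a and Il1rn), against 8.11% of all genes. The median log2 fold change of the 10 was -0.40, against -0.0011 over all genes, of which 50.2% were below 0. Several lists of myeloid markers were also mostly lower in S1pr1 KO against WT. Lower were 10 of the 11 neutrophil genes tested (median log2 fold change -0.46), 7 of the 8 monocyte genes (median -0.39) and 9 of the 10 alveolar macrophage genes (median -0.285). Of the 6 dendritic cell genes 5 were lower (median -0.17). Interstitial macrophage genes went the other way, with 6 of 8 higher and 2 lower (median 0.067). None of these markers passed the edgeR test, and the part of myeloid cells in the values of the 10 genes was not tested.

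In C3 KO against WT the 10 genes lay nearer to no change. The mean was lower for 8 and higher for 2, with a median log2 fold change of -0.06, against -0.0010 over all genes, of which 50.2% were below 0. None passed the edgeR test (0.00989% of all genes did), none had an unadjusted p under 0.05 (11% of all genes did), and none passed with DESeq2 (0.85% of all genes) or voom (0.104% of all genes). Il1b had the lowest fold change and Nlrp3 the highest.

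In S1pr1 KO against C3 KO, 7 of the 10 genes were lower in S1pr1 KO and 3 higher, with a median log2 fold change of -0.33, against 0.0031 over all genes, of which 49.3% were below 0. Again 0 of 10 passed the edgeR test, as did 0 of all genes (0%). At an unadjusted p under 0.05 there were 2437 genes of all those tested and 1 of the 10, Il18, which was lower, as were 5.46% of all genes. DESeq2 called 1.57% of all genes and voom 0.178% in this comparison, none of the 10 among them. The 3 comparisons share groups, C3 KO and S1pr1 KO being set against the same 4 WT libraries, so their fold changes are not independent of each other.

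**Figure D2:**
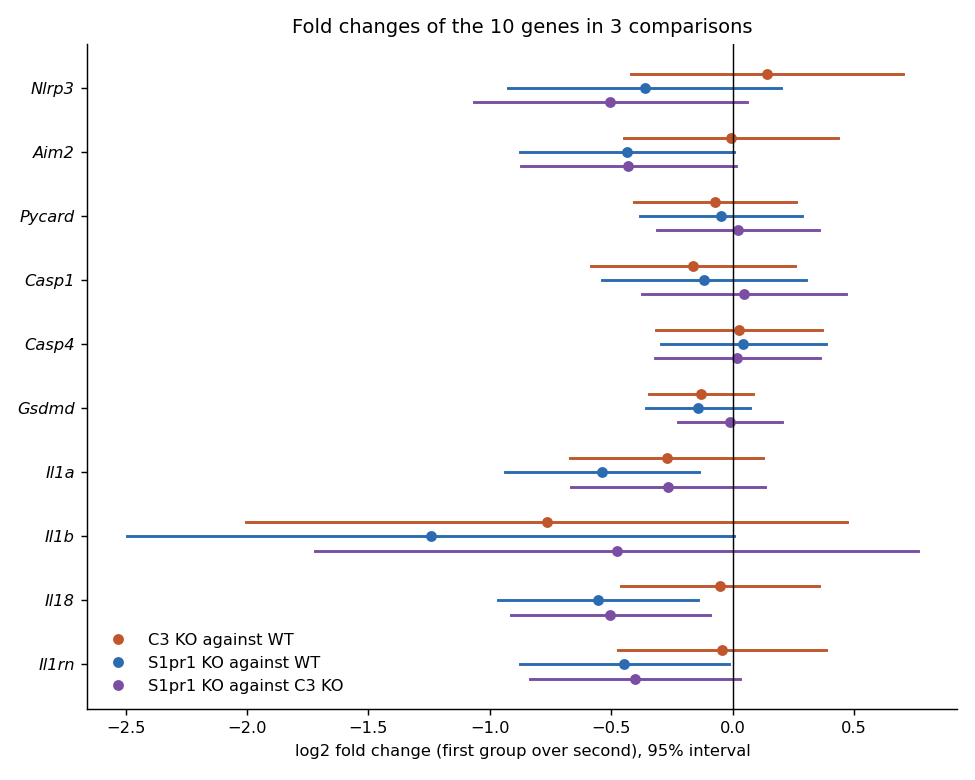
Log2 fold change (x axis, edgeR, first group over second) with its 95% interval for each gene in the 3 comparisons. In S1pr1 KO against WT the intervals of Il1a, Il18 and Il1rn lie below 0, while those of Pycard, Casp1, Casp4 and Gsdmd include 0 in all 3 comparisons.

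Nlrp3, the sensor of potassium efflux and membrane damage, lies on chromosome 11 (59432394 to 59457782, GRCm39, as are all gene positions here). It had 8.65, 8.58, 16.2 and 7.68 CPM in C3 KO lungs, 8.43, 5.61, 8.15 and 6.80 CPM in S1pr1 KO lungs, and 11.7, 8.61, 6.06 and 10.9 CPM in WT lungs. The 3 groups overlapped, and the library C3 KO 3 was higher than the other 11. The log2 fold change was -0.36 in S1pr1 KO against WT, with a standard error (SE) of 0.26 and an edgeR adjusted p of 0.506, and it was -0.23 without WT 1. The value was 0.14 in C3 KO against WT (SE 0.26, edgeR adjusted p = 0.891), and -0.16 without C3 KO 3. Set against C3 KO, the S1pr1 KO lungs had a value of -0.50 (SE 0.26, edgeR adjusted p = 0.471), which was -0.20 without C3 KO 3.

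C3 KO 3 also stood apart in its markers. The summed level of the 11 neutrophil genes in the table, of 12 listed, was 1444 CPM there, against 147 to 407 CPM in the other C3 KO lungs, 314 to 549 CPM in S1pr1 KO lungs and 346 to 533 CPM in WT lungs. Its 6 erythroid genes summed to 24698 CPM, against 960 to 4460 CPM in the other 11 libraries. No neutrophil gene was at 0 in any library. Each of the 10 genes had an edgeR adjusted p above 0.05 in each comparison without a covariate. The same held with the neutrophil score (the mean log2 CPM of the list) as a covariate. That fit therefore cannot show what part neutrophils had in the values, which was not tested. In whole lung, fewer cells of a type and less RNA per cell cannot be told apart.

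Aim2, the sensor of cytosolic double-stranded DNA, lies on chromosome 1 (173178445 to 173293606) and overlaps Cadm3 on the opposite strand. It had 10.2, 10.7, 12.6 and 9.52 CPM in C3 KO lungs, 8.01, 6.14, 9.83 and 8.01 CPM in S1pr1 KO lungs, and 15.6, 9.30, 7.64 and 10.7 CPM in WT lungs. All 4 S1pr1 KO libraries lay within or below the WT range, and WT 1 was the highest library. On the log2 scale the fold change was -0.44 in S1pr1 KO against WT (SE 0.20, edgeR adjusted p = 0.282), where the 95% interval of the fold reached from 0.545 to 1.004. Without WT 1 this value was -0.205. Against C3 KO it was -0.43 (SE 0.20, edgeR adjusted p = 0.427). The C3 KO value against WT was -0.01 (SE 0.20) and its sign turned under several other settings.

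Pycard, which encodes the adaptor ASC, lies on chromosome 7 (127588880 to 127593039). It had 5.49, 7.70, 7.91 and 5.37 CPM in C3 KO lungs, 6.36, 5.79, 7.65 and 7.12 CPM in S1pr1 KO lungs, and 7.75, 7.19, 6.09 and 6.80 CPM in WT lungs. The groups overlapped throughout. The fold lay between 0.767 and 1.22 in S1pr1 KO against WT and between 0.754 and 1.20 in C3 KO against WT (95% intervals), and the sign of these small differences turned under some settings.

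Casp1 and Casp4 lie next to each other on chromosome 9 (5298508 to 5307290 and 5308828 to 5336783). Caspase-1 is the protease of the inflammasomes, and mouse caspase-11, the product of Casp4, binds bacterial lipopolysaccharide in the cytosol. Casp1 averaged 9.22 ± 0.517 CPM in C3 KO lungs, 9.53 ± 2.02 CPM in S1pr1 KO lungs and 10.3 ± 2.83 CPM in WT lungs (SD, n = 4 each). WT 1 was the highest library for Casp1, at 13.7 CPM, and WT 3 the lowest, at 6.91 CPM, so that the WT range enclosed all 8 knockout libraries. Casp4 averaged 13.2 ± 2.46 CPM in C3 KO lungs, 13.4 ± 1.89 CPM in S1pr1 KO lungs and 12.95 ± 2.24 CPM in WT lungs (SD, n = 4 each). Over the 3 comparisons the fold changes of these caspases lay between -0.16 and 0.05 on the log2 scale, each smaller than its SE, and the lowest edgeR adjusted p was 0.803. The 95% intervals of the fold reached from 0.690 to 1.23 for Casp1 and from 0.814 to 1.31 for Casp4 in S1pr1 KO against WT.

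Gsdmd, on chromosome 15 (75734176 to 75739257), encodes the pore protein gasdermin D. It had 65.7, 67.6, 66.1 and 51.0 CPM in C3 KO lungs, 66.6, 56.5, 66.3 and 59.0 CPM in S1pr1 KO lungs, and 78.6, 65.1, 65.2 and 65.3 CPM in WT lungs. Of the 12 libraries 10 lay between 56.5 and 67.6 CPM, with WT 1 above and the library labelled C3 KO 4 below. The log2 fold change was -0.14 in S1pr1 KO against WT (SE 0.10, edgeR adjusted p = 0.490) and -0.13 in C3 KO against WT (SE 0.10, edgeR adjusted p = 0.671). The first was -0.07 without WT 1 and the second -0.04 without the library labelled C3 KO 4. Its intervals were the narrowest of the 10, with a fold between 0.781 and 1.05 in S1pr1 KO against WT.

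**Figure D3:**
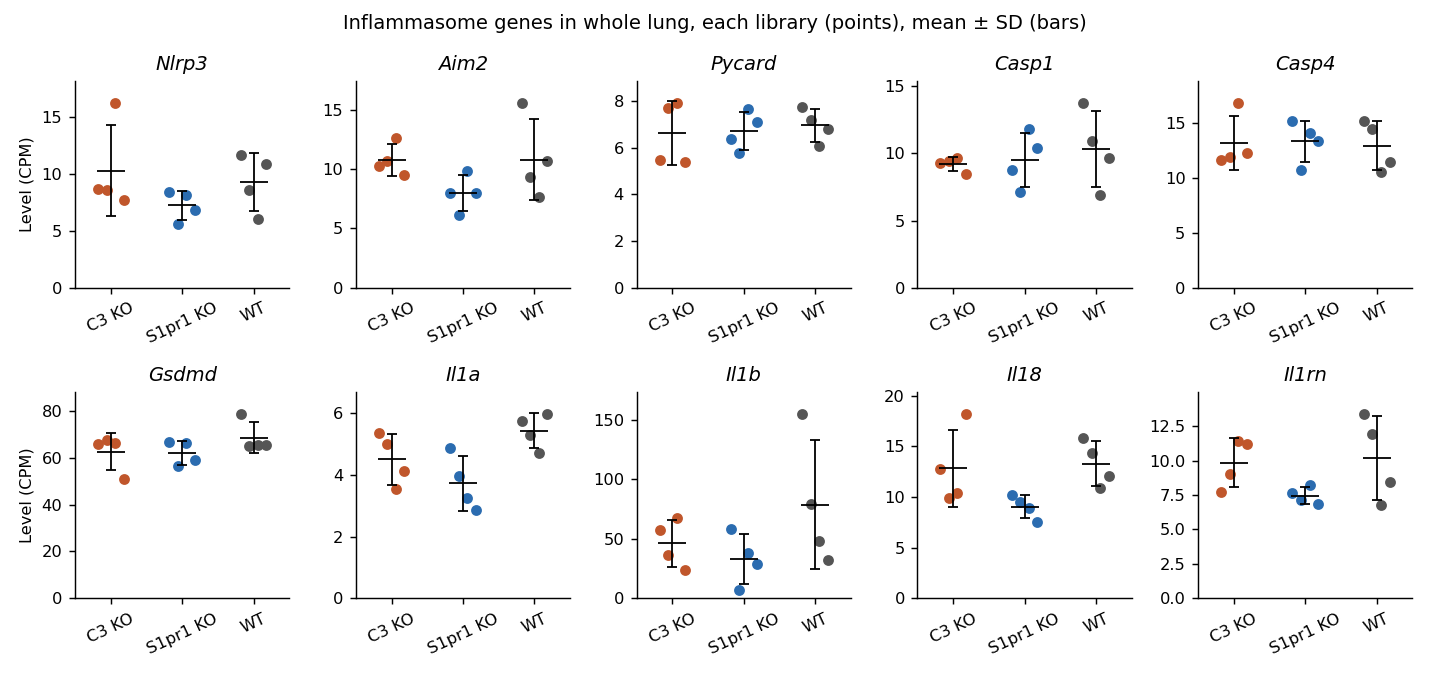
Level (CPM) of each of the 10 genes in the 4 C3 KO, 4 S1pr1 KO and 4 WT libraries (points, in order of replicate number), with the mean and SD of each group. The S1pr1 KO libraries of Il18 (7.51 to 10.2 CPM) all lie below the WT libraries (10.9 to 15.8 CPM), and the other 9 genes overlap between S1pr1 KO and WT.

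The cytokine genes of the IL-1 family and their antagonist lie on chromosome 2, Il1b at 129206490 to 129213059, Il1a at 129141530 to 129151892 and Il1rn at 24226865 to 24241506, while Il18 lies on chromosome 9 (50466127 to 50493140). The 250 bases before the transcription start of these 4 genes are shown, since they had the lowest fold changes in S1pr1 KO against WT. For Il1rn the most upstream of 3 starts was used. The sequences come from RefSeq's promoters on GRCm38.p6, another build than that of the deposited table, and 9 of the 10 genes had an entry, all but Gsdmd. Capitals mark matches to TATAAA (searched on the gene's strand) and to the AP-1 motif TGANTCA (searched on both strands).
Il1b, chr2:129371140-129371389, minus strand: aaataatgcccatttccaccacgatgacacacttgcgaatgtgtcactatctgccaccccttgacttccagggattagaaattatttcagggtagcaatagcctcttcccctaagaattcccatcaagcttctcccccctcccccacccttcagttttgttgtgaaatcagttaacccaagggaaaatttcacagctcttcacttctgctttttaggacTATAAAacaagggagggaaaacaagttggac
Il1a, chr2:129309973-129310222, minus strand: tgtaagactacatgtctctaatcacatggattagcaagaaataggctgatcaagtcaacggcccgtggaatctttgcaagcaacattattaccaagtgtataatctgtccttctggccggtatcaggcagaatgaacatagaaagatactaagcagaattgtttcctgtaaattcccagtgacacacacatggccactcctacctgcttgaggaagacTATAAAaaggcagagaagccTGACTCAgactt
Il1rn, chr2:24336610-24336859, plus strand: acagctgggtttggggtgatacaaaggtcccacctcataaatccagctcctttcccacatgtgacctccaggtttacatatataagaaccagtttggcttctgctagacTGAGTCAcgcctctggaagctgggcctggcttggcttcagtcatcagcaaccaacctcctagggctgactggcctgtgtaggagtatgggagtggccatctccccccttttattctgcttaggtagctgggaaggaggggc
Il18, chr9:50554450-50554699, plus strand: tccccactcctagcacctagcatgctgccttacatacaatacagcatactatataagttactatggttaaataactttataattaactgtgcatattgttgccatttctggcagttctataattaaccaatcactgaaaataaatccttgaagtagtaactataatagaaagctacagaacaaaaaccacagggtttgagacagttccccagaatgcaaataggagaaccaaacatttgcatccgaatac

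Il1b and Il1a each held TATAAA close to the start, a motif found in 7.59% of 32851 promoter windows of this length. Il1a and Il1rn each held an AP-1 match, as did 6.75% of the windows, and the Il18 window held neither. For Il1rn the match was in the window shown and not in those of its other starts. A κB motif was searched on both strands as GGGRNNYYCC (R is A or G, Y is C or T, N is any base). Looser spellings were not searched. This motif, which 7.25% of the windows held, was matched before Nlrp3 and Casp4 and not before the other 7 genes with an entry. For Nlrp3 it was matched before the more upstream start only, whereas the percentages count single windows. An interferon response motif, held by 2.98%, was matched before none of the 9. The matches are letters in a window and not measured sites of binding.

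Il1b encodes IL-1β, which is secreted after cleavage by caspase-1. It had 57.8, 36.5, 67.2 and 24.1 CPM in C3 KO lungs, 58.1, 7.28, 38.5 and 29.0 CPM in S1pr1 KO lungs, and 155, 79.6, 48.6 and 32.1 CPM in WT lungs. WT 1 and WT 2 were higher than all 8 knockout libraries, while WT 3 and WT 4 lay among them. S1pr1 KO lungs differed from WT by -1.24 on the log2 scale (SE 0.58, edgeR adjusted p = 0.279), and the 95% interval of the fold reached from 0.177 to 1.005. C3 KO lungs had a value of -0.77 against WT (SE 0.57, edgeR adjusted p = 0.667). Between the knockouts, S1pr1 KO against C3 KO gave -0.48 (SE 0.57, edgeR adjusted p = 0.781). These values rest in part on single libraries, since without WT 1 they were -0.68 in S1pr1 KO against WT and -0.205 in C3 KO against WT. Without the library labelled S1pr1 KO 2 the value in S1pr1 KO against C3 KO was -0.149.

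The summed level of monocyte markers followed Il1b in some libraries and not in others. WT 1 had the highest sum of the 8 monocyte genes in WT, 1439 CPM, and the range was 715 to 2043 CPM in C3 KO lungs, 401 to 1006 CPM in S1pr1 KO lungs and 701 to 1439 CPM in WT lungs, with none of these genes at 0. The library labelled C3 KO 4 had the highest monocyte sum of the 12, 2043 CPM, and the second lowest Il1b. Its monocyte score (the mean log2 CPM of the list) was instead the lowest of the C3 KO libraries, 4.51, against 4.76, 4.96 and 5.19. Chil3 and Nr4a1 weigh most in the monocyte sum, with WT means of 424 and 504 CPM, while each other gene of the list averaged at most 39.0 CPM there. Chil3 is also in the alveolar macrophage list (genes named for their levels and this overlap). The library labelled S1pr1 KO 2, lowest for Il1b, had the lowest monocyte sum of the 12, 401 CPM, and the highest sum of 6 cardiomyocyte genes, 2813 CPM. The cardiomyocyte sum was 366 to 708 CPM in C3 KO lungs, 704 to 2813 CPM in S1pr1 KO lungs and 149 to 579 CPM in WT lungs, so that every S1pr1 KO library was above every WT library. All 6 cardiomyocyte genes had a higher mean in S1pr1 KO against WT (median log2 fold change 1.66, lowest edgeR adjusted p 0.0519). Without the library labelled S1pr1 KO 2 the log2 fold change of Il1b in S1pr1 KO against WT was -0.91. With the neutrophil score as a covariate it was -0.99, and with the alveolar macrophage score -1.71. The part of monocytes or cardiomyocytes in the result was not tested.

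Il1a encodes IL-1α, which is active without cleavage by caspase-1 and is known as an alarm signal of dying cells. It had 5.35, 5.01, 3.55 and 4.12 CPM in C3 KO lungs, 4.87, 3.97, 3.24 and 2.85 CPM in S1pr1 KO lungs, and 5.76, 5.29, 4.72 and 5.98 CPM in WT lungs. Of the S1pr1 KO libraries, 3 were below every WT library and S1pr1 KO 1 was just above WT 3. It differed by -0.54 on the log2 scale in S1pr1 KO against WT (SE 0.18, edgeR adjusted p = 0.151) and -0.27 in C3 KO against WT (SE 0.18, edgeR adjusted p = 0.629, and -0.17 without C3 KO 3). Its sign was the same under every alternative setting run. Il1a overlaps the long noncoding gene Gm14023 on the opposite strand, which had a median of 26.5 reads per library, and the reads of these genes cannot be told apart because the strand setting is not given. The same holds for Il1b with Il1bos (median 19.5 reads), Il18 with Bco2 (80.5 reads), Aim2 with Cadm3 (89 reads) and Pycard with Gm45205 (5 reads).

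Il18 encodes IL-18, a cytokine that caspase-1 matures and that acts on T cells and natural killer cells. It had 12.8, 9.89, 10.4 and 18.2 CPM in C3 KO lungs, 10.2, 9.51, 8.95 and 7.51 CPM in S1pr1 KO lungs, and 15.8, 14.3, 10.9 and 12.1 CPM in WT lungs. Every S1pr1 KO library was below every WT library, which held for 1 of the 10 genes and for 5.18% of all genes tested. The log2 fold change was -0.55 in S1pr1 KO against WT (SE 0.19, unadjusted p = 0.0123, edgeR adjusted p = 0.151), a fold of 0.681 with a 95% interval from 0.512 to 0.905. Over all alternative settings this value lay between -0.65 and -0.38 and the adjusted p between 0.0532 and 0.362. C3 KO lungs had a value of -0.05 against WT (SE 0.19, edgeR adjusted p = 0.952).

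In S1pr1 KO against C3 KO the log2 fold change of Il18 was -0.50 (SE 0.19, unadjusted p = 0.0205, edgeR adjusted p = 0.326), and leaving out the library labelled C3 KO 4 gave -0.29. That library had the highest Il18 of the 12 and the highest sum of the 10 alveolar macrophage genes, 2028 CPM. The sum was 720 to 2028 CPM in C3 KO lungs, 592 to 782 CPM in S1pr1 KO lungs and 759 to 976 CPM in WT lungs, with no gene of the list at 0. With the alveolar macrophage score as a covariate, Il18 had a log2 value of -0.38 in S1pr1 KO against WT (edgeR adjusted p = 0.200) and -0.25 in S1pr1 KO against C3 KO (edgeR adjusted p = 0.536). The 8 T cell genes summed to 34.4 to 60.1 CPM in C3 KO lungs, 16.5 to 34.7 CPM in S1pr1 KO lungs and 35.4 to 52.2 CPM in WT lungs. In S1pr1 KO against WT 2 of the 8, Cd4 and Cd6, fell (edgeR adjusted p = 0.0276 and 0.0389, genes named after their values were seen). Of all genes tested, 1.35% passed in that comparison, in either direction. The 6 natural killer cell genes summed to 16.3 to 54.7 CPM in C3 KO lungs, 63.0 to 81.7 CPM in S1pr1 KO lungs and 22.2 to 55.3 CPM in WT lungs, and all 6 had a higher mean in S1pr1 KO against WT (median log2 fold change 0.93, lowest edgeR adjusted p 0.095). The 6 B cell genes all had a lower mean there (median -1.22, lowest edgeR adjusted p 0.1395). The part of these lymphocytes in the Il18 result was not tested.

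Il1rn encodes the antagonist that binds the IL-1 receptor without signalling. It had 7.72, 9.04, 11.4 and 11.2 CPM in C3 KO lungs, 7.65, 7.15, 8.21 and 6.83 CPM in S1pr1 KO lungs, and 13.4, 11.96, 6.79 and 8.48 CPM in WT lungs. The S1pr1 KO libraries lay close together and WT 3 was lower than all of them. Its log2 fold change was -0.45 in S1pr1 KO against WT (SE 0.20, unadjusted p = 0.0436, edgeR adjusted p = 0.261, and -0.28 without WT 1), -0.40 in S1pr1 KO against C3 KO (SE 0.20, edgeR adjusted p = 0.453) and -0.04 in C3 KO against WT (SE 0.20, edgeR adjusted p = 0.963).

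The balance of agonist and antagonist was examined as Il1b reads per Il1rn read, a quantity chosen after the values had been seen. It was 7.48, 4.04, 5.89 and 2.15 in C3 KO lungs, 7.60, 1.02, 4.69 and 4.25 in S1pr1 KO lungs, and 11.6, 6.65, 7.15 and 3.79 in WT lungs. The groups overlapped in each comparison. The log2 difference was -0.94 in S1pr1 KO against WT (two-sided exact permutation p = 0.286), -0.61 in C3 KO against WT (exact p = 0.314) and -0.33 in S1pr1 KO against C3 KO (exact p = 0.714). The adjusted values over these 3 tests were 0.471, 0.471 and 0.714, and 0.0286 is the smallest p that 4 libraries against 4 can give.

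Other genes of the pathway were described from 5 lists, of which no gene passed the edgeR test in any comparison. At an unadjusted p under 0.05 there were 5 genes in C3 KO against WT, 5 in S1pr1 KO against WT and 6 in S1pr1 KO against C3 KO, of the 62 tested, while over all genes the shares were 11%, 18% and 12%. Card8 and Irgb10, also listed, were not analysed here. The list of 9 receptors and soluble inhibitors, which also holds the cytokine gene Il33, included the lowest values. Il18r1, the ligand-binding chain of the IL-18 receptor, had 69.8, 59.1, 59.7 and 63.7 CPM in S1pr1 KO lungs, against 101, 92.6, 80.8 and 82.0 CPM in WT lungs. Its groups did not overlap, and its difference was -0.50 on the log2 scale (SE 0.12, edgeR adjusted p = 0.0574). Il1r2, a decoy receptor for IL-1, had 1.33, 1.24, 1.41 and 1.13 CPM in S1pr1 KO lungs, against 2.60, 5.18, 6.09 and 1.89 CPM in WT lungs, and a difference of -1.62 on the log2 scale (SE 0.54, edgeR adjusted p = 0.145). The groups of Il1r2 did not overlap either, at levels of 38 to 70 reads per S1pr1 KO library. Every S1pr1 KO library was thus below every WT library for 2 of these 9 genes, as for 5.18% of all genes. Il18bp, the soluble IL-18 binding protein, had -0.34 on the log2 scale in C3 KO against WT (SE 0.15, edgeR adjusted p = 0.434).

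Among 18 licensing and upstream genes tested, P2rx7, the ATP-gated channel that triggers potassium efflux, had 37.5, 40.7, 36.0 and 33.9 CPM in C3 KO lungs, 43.1, 32.7, 39.8 and 42.1 CPM in S1pr1 KO lungs, and 33.7, 32.0, 28.4 and 31.1 CPM in WT lungs. Every C3 KO library was above every WT library, as for 3% of all genes, while S1pr1 KO 2 lay within the WT range. The log2 fold change was 0.33 in S1pr1 KO against WT (SE 0.09, edgeR adjusted p = 0.0841) and 0.24 in C3 KO against WT (SE 0.09, edgeR adjusted p = 0.381). Gbp2, a guanylate-binding protein of the interferon response, had a value of 0.48 in S1pr1 KO against WT (SE 0.17, edgeR adjusted p = 0.158). Txnip, a thioredoxin-binding protein described as a partner of NLRP3, had a value of -0.33 there (SE 0.11, edgeR adjusted p = 0.137). Of the genes lowest in p in C3 KO against WT, Rela, an NF-κB subunit, had -0.23 (edgeR adjusted p = 0.415) and Tlr4, the lipopolysaccharide receptor, 0.25 (edgeR adjusted p = 0.442).

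The 12 priming response genes, targets of NF-κB such as Tnf, had a lower mean for 11 in S1pr1 KO against WT, with a median log2 fold change of -0.18. None had an unadjusted p under 0.05, and the values ran from -0.89 for Ccl3 (SE 0.42, edgeR adjusted p = 0.290) to 0.20 for Sod2 (SE 0.10, edgeR adjusted p = 0.296). Tnf averaged 4.89 ± 1.54 CPM in S1pr1 KO lungs and 7.62 ± 3.08 CPM in WT lungs (SD, n = 4 each; edgeR adjusted p = 0.467). In C3 KO against WT, 6 of the 12 were lower and 6 higher. Of the 13 other sensors tested, 7 were lower and 6 higher in S1pr1 KO against WT, with a median of -0.05. Of the 10 other caspases and pore proteins tested, 6 were lower and 4 higher, with a median of -0.05. Casp12, a caspase of the inflammatory subfamily, was higher in every S1pr1 KO library than in every C3 KO library, as were 3.55% of all genes (log2 fold change 0.33, SE 0.11, edgeR adjusted p = 0.297).

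**Figure D4:**
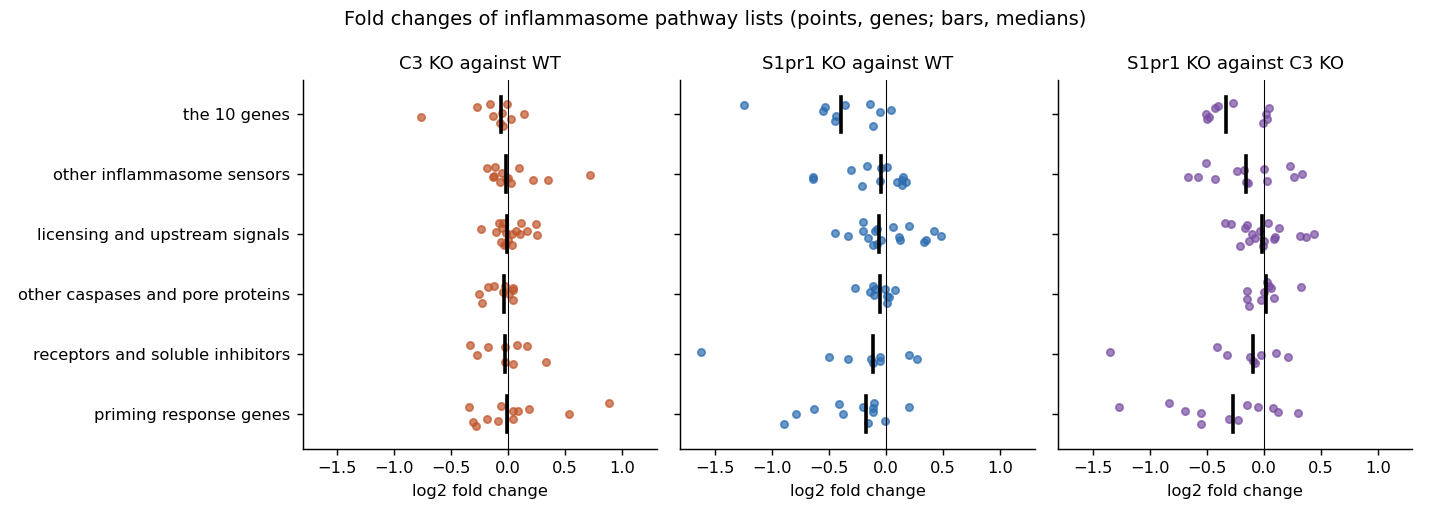
Log2 fold change (x axis) of each gene tested (points) of the 10 genes and of the 5 pathway lists (rows), with the median as a bar, in the 3 comparisons. In S1pr1 KO against WT the median of the 10 genes is -0.40 and those of the 5 lists lie between -0.18 and -0.05.

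The 12 libraries differed in depth and cell content, which the genes of a library share. Across them, 42 of the 45 pairs of the 10 genes had a Pearson r of log2 CPM above 0, with a median of 0.55. Over all pairs of the genes tested, 49.9% had an r above 0 and the median was -0.001. After Benjamini-Hochberg adjustment over the 45 pairs, 1 pair passed, Nlrp3 with Aim2 (r = 0.85, permutation p = 0.00065, adjusted p = 0.0292; Spearman rho = 0.86, permutation p = 0.00073, adjusted p = 0.0328). Without the 2 libraries farthest from the median of Nlrp3, C3 KO 3 and S1pr1 KO 2, r was 0.85 with an adjusted p of 0.0778. With the group means removed the pair had r = 0.81 (adjusted p = 0.0187), and 7 pairs passed in all. Il1b with Gsdmd had r = 0.77 (adjusted p = 0.0695). Il1b with Il1a, its neighbour on chromosome 2, had r = 0.40 (adjusted p = 0.295) and Casp1 with Casp4 r = 0.66 (adjusted p = 0.0873). Il18 with Pycard had the lowest r, -0.30 (adjusted p = 0.428).

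**Figure D5:**
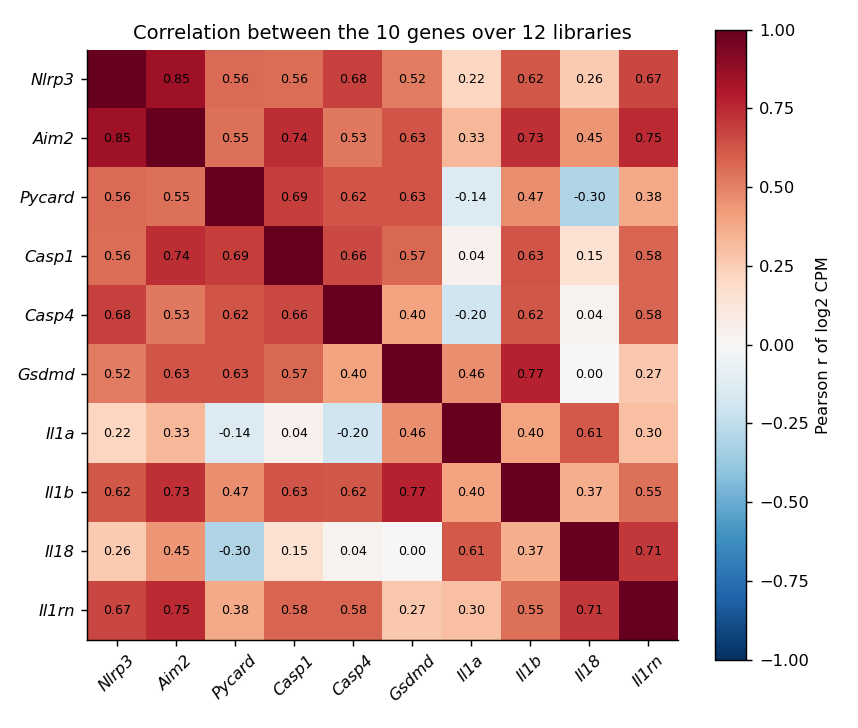
Pearson r of log2 CPM over the 12 libraries for each pair of the 10 genes (rows and columns, colour and printed value). The highest r is that of Nlrp3 with Aim2 (0.85), and the values of Il18 and Il1a with Pycard and of Il1a with Casp4 are below 0.

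The 12 libraries differed in depth and cell content, which the genes of a library share. No p is given, since the highest r of 13917 is high by selection. Over these libraries, the genes most like each of the 10 were taken from 13917 protein-coding genes by the highest Pearson r of log2 CPM. They were Il17ra for Nlrp3 (r = 0.93), Unc93b1 for Aim2 (r = 0.98), Oas3 for Pycard (r = 0.95), Irf5 for Casp1 (r = 0.96), Jarid2 for Casp4 (r = 0.91) and Gngt2 for Gsdmd (r = 0.96). Among the cytokines they were Sema6a for Il1b (r = 0.90), Pip4p1 for Il1a (r = 0.92), Ctla4 for Il18 (r = 0.93) and Csf2rb2 for Il1rn (r = 0.96). Spearman rho of these first genes ran from 0.727 (Gngt2) to 0.993 (Unc93b1). Without the 2 libraries farthest from the median of each of the 10, r ran from 0.848 (Jarid2) to 0.958 (Pip4p1). After Sema6a, the genes most like Il1b were Ptpdc1 (r = 0.89) and Clec4e (r = 0.89). After Ctla4, the genes most like Il18 were Ch25h (r = 0.90) and Icos (r = 0.89). Clec4e is a receptor of myeloid cells, Icos a costimulatory receptor of T cells and Ctla4 an inhibitory one. Sema6a, Ptpdc1 and Ch25h were not assigned to a cell type here, and the part of any cell type in these likenesses was not tested. Csf2rb2 and Csf2rb (r = 0.93), which encode near-identical receptor chains and may share reads, were both among the 3 genes most like Il1rn.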

How the data were processed

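The authors deposited 2 tables for the 12 whole lung libraries, whole-number read counts per gene and FPKM values per listed gene length. The submitters' processing notes name CASAVA, STAR and the build GRCm39 (mm39). How reads were counted, with which strand setting and annotation, is not given in the sources used here. Counts were fitted with edgeR 4.0.16 (R 4.3.3; filterByExpr, TMM, quasi-likelihood, 1 mean per group, 9 residual degrees of freedom), with Benjamini-Hochberg adjustment over 20229 genes and a threshold of 0.05. The SE is the absolute log2 fold change over the root of F. The fit was tested on simulated counts that held no mislabelled or outlying library, so that test does not cover such libraries. Permutations (SciPy 1.17.1) were exact for ratios and 100000 for correlations. Alternatives were DESeq2 1.42.0, limma 3.58.1 on voom values or log2(FPKM + 1) and log2(FPKM + 0.1), other scalings and filters, fits of only the groups compared, marker scores as covariates and left-out libraries. Named besides the 10 genes were C3, S1pr1, up to 3 genes of lowest p per pathway list and comparison, and the 3 genes most like each of the 10. Cd4, Cd6, Chil3 and Nr4a1, of the marker lists, lie outside this rule. These genes and lists were chosen with earlier results of these data known. No pair of replicates agreed within sampling noise (chi-square per degree of freedom at least 13.6).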

Additional observations from a re-analysis of the deposited data

Results flagged for a closer look

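Among 30 groups of 4 libraries (10 genes in 3 groups), 4 had a library far from the other 3. Chance alone gives about 1 in 20 for independent groups of normally distributed values. These groups are not independent, since the 10 genes were counted in the same 12 libraries, so no excess over chance can be read from this number. In C3 KO 3, which had the highest neutrophil and erythroid sums, Nlrp3 was at 16.2 CPM and Casp4 at 16.9 CPM. Gsdmd was at 51.0 CPM in 1 library, labelled C3 KO 4, whose C3 level goes against its label. It was at 78.6 CPM in WT 1, which was also the highest WT library for Il1b, Il18, Il1rn, Aim2, Nlrp3, Pycard, Casp1 and Casp4.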

How the results depend on the processing

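Over 25 alternatives for each of 30 fold changes (10 genes, 3 comparisons), 688 of 750 values kept their direction and their side of the threshold, 61 changed sign and 1 newly passed (Il1a in S1pr1 KO against WT, -0.677 with voom and quality weights). In 16 of the 30 no value changed sign, among them all those of Il1a and Il1b and, in S1pr1 KO against WT, those of Nlrp3, Aim2, Gsdmd, Il18 and Il1rn. The number of the 10 genes called in S1pr1 KO against WT was 1 with voom and 0 under the other 24 alternatives. Passing pairs numbered 7 with the group means removed and 0 without the 2 farthest libraries, against 1. No paired analysis was possible because the labels number the samples singly and no number is shared between groups. The cause of the sign changes was not tested. Il1a had the fewest reads of the 10, 96 to 257 per library, and Il1b the largest coefficient of variation, 0.546.

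Aim2 in C3 KO against WT was 0.000143 with RLE scaling, 0.00487 with upper-quartile scaling, 0.000699 with no filter, 0.00653 with at least 1 CPM in 4 libraries, 0.00102 with only the groups compared, 0.0581 with the neutrophil score, 0.0519 without C3 KO 4 and S1pr1 KO 2, 0.00955 with voom, and 0.0242 and 0.0396 with limma on log2(FPKM + 1) and log2(FPKM + 0.1). With the neutrophil score, Pycard was 0.0382 in S1pr1 KO against WT and Gsdmd 0.0106 in S1pr1 KO against C3 KO. With the alveolar macrophage score, Casp4 was -0.000186 in S1pr1 KO against WT and -0.0333 in S1pr1 KO against C3 KO, where Pycard was -0.0729. Without C3 KO 4 and S1pr1 KO 2, Pycard was 0.0184 in C3 KO against WT, 0.0163 in S1pr1 KO against WT and -0.0021 in S1pr1 KO against C3 KO. With voom, Casp4 was -0.0265 in C3 KO against WT and Pycard 0.000448 in S1pr1 KO against WT.

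Leaving out 1 library at a time gave ranges in C3 KO against WT of -0.161 to 0.272 for Nlrp3, -0.135 to 0.224 for Aim2, -0.164 to 0.0186 for Pycard, -0.308 to 0.00699 for Casp1, -0.11 to 0.112 for Casp4, -0.267 to 0.0615 for Il18 and -0.19 to 0.118 for Il1rn. In S1pr1 KO against WT they were -0.116 to 0.0164 for Pycard, -0.267 to 0.0531 for Casp1 and -0.0408 to 0.135 for Casp4. In S1pr1 KO against C3 KO they were -0.0684 to 0.114 for Pycard, -0.0726 to 0.157 for Casp1, -0.047 to 0.154 for Casp4, -0.102 to 0.0267 for Gsdmd and, for the log2 ratio of Il1b to Il1rn, an alternative added after seeing the data, -0.696 to 0.271.

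Over all genes, S1pr1 KO against WT had 274 calls, against 1279 with DESeq2, 928 with voom, 664 with the alveolar macrophage score, 473 without C3 KO 4 and S1pr1 KO 2, 171 and 150 with limma on log2(FPKM + 1) and log2(FPKM + 0.1), and 2 to 571 with 1 library left out. C3 KO against WT had 2 calls, against 172 with DESeq2, 21 with voom, 1 with only the groups compared, 11 with the alveolar macrophage score, 4 with the neutrophil score, 6 in each limma fit of FPKM, 31 without C3 KO 4 and S1pr1 KO 2, and 1 to 32 with 1 library left out. S1pr1 KO against C3 KO had 0, against 317 with DESeq2, 36 with voom, 42 with the neutrophil score, 15 with no filter, 7 and 6 with limma on log2(FPKM + 1) and log2(FPKM + 0.1), 3 without C3 KO 4 and S1pr1 KO 2, and 0 to 13 with 1 library left out.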
